A study of Mus musculus with 32 samples.

Results

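The livers compared came from WT mice that had fasted for 16 h after 6 weeks on a high-fat (HF) or a low-fat (LF) diet. They were chosen by genotype, diet and feeding state alone, and they make up 8 of the 32 mice of the series, 4 per diet. All mice were male and of the C57BL/6J background, the WT mice being littermates of mice without the medium-chain acyl-CoA dehydrogenase (MCAD, encoded by Acadm), which are called KO below. Both diets were semi-synthetic, with palm oil as the source of the added fat in the HF diet. Food was taken away in the early evening and the livers were collected the next morning. The labels give an age without a unit, which was 13.5, 11, 13 and 8.5 for HF replicates 1 to 4 and 12, 12, 7.5 and 11 for LF replicates 1 to 4. In both groups replicates 1 and 2 were labelled lane 7 of the sequencer and replicates 3 and 4 lane 8. The question is which liver genes differ between the diets when the mice have not eaten, and the other WT and KO mice entered only as a comparison and through the shared estimate of the spread.

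During a fast the liver lives on fatty acids released by adipose tissue. It oxidizes them in mitochondria and peroxisomes, makes ketone bodies for other organs, and builds glucose from amino acids, whose nitrogen leaves as urea. Low insulin and high glucagon, together with the fatty acid sensor PPARα, switch on the genes of these pathways, while SREBP factors, which drive lipid and cholesterol synthesis, are turned down. A high-fat diet supplies fatty acids with every meal and lowers the need for the liver to make them.

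The libraries hold short reads taken near the poly(A) tail of transcripts and counted per gene. The totals over genes ran from 2339098 to 4292200 counts per mouse. Levels are given in CPM, counts scaled to a common library total, and 3 counts correspond to 0.699 to 1.28 CPM. The hepatocyte markers summed to 41698 to 58447 CPM in the HF mice and 45971 to 53100.0 CPM in the LF mice, so the labelled tissue was borne out by its markers in every library. Cps1, one of these 10 markers, was itself lower on HF. Some libraries stood apart. In HF replicate 2, acinar pancreas markers reached 23947 CPM with 21 genes detected, against 2.16 to 22.9 CPM in the other 7 mice. HF replicate 4 held skeletal muscle markers at 384.6 CPM (at most 2.76 CPM in the other 7), and HF replicate 3 held adrenal cortex markers at 39.5 CPM (at most 4.97 CPM in the other 7). Mice of the same group differed by more than sampling noise in every pair, with a chi-square of at least 6.29 per gene, so no library was counted double. In liver RNA, fewer cells of a type and less RNA per cell cannot be told apart.

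Of 9893 genes tested, 93 (0.94%) had an adjusted p below 0.05 by edgeR (quasi-likelihood F test, p-values adjusted by Benjamini and Hochberg). HF exceeded LF for 57 of them (0.576% of all genes tested) and fell below it for 36 (0.364%). Among the genes lower on HF were Mat1a, which makes S-adenosylmethionine, Arg1 and Cps1 of the urea cycle, and Plin5 and Pnpla2 of lipid droplets. Among those higher on HF were the cholesterol carrier Stard4, the steroid dehydrogenases Akr1c6 and Hsd3b5, and the aldehyde oxidase Aox3. The median size of the difference among the 93 genes was 1.16 on the log2 scale, with a range of 0.64 to 5.57. In 85 of the 93 the values of the diets did not overlap, against 749 (7.57%) of all genes tested (3.94% with HF above and 3.63% with HF below). For each such gene, the two-sided exact permutation test gives p = 0.0286, the smallest that 4 against 4 mice allow. Groups that do not overlap fix this value in advance, and the 93 were called on the same mice. Neither the count of 85 nor this p is independent support. Exons of 16 of the 93 genes overlap those of another gene, 15 of them on the opposite strand (among them Acat3, Epb41 and Atg16l2), and without a stated strand setting reads of such partners cannot be told apart. All 93 differences had the same sign in lane 7 and in lane 8, as did those of 5761 of all genes tested; the 93 were called on both lanes together, so this is no independent support. Without scaling factors for composition (TMM), the median of all genes moved to 0.09 and 100 of 126 calls were higher on HF, and with only the 16 WT mice in the fit 39 of 81 were.

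The number of calls depended on single mice. It fell to 57 without HF replicate 1, to 31 without HF replicate 2, to 34 without LF replicate 1 and to 27 without LF replicate 2, and it rose to 202 without LF replicate 3. Of the 93 genes, 52, 31, 70 and 67 were still called without HF replicates 1 to 4, and 34, 27, 89 and 64 without LF replicates 1 to 4. LF replicate 3, the mouse with the lowest age on its label, had the lowest LF value in 27 of the 36 genes lower on HF, and the highest LF value in 26 of the 57 genes higher on HF. With age as labelled as a term in the fit, 86 of the 93 were still called, and with lane as a term 91. HF replicate 2 had the highest HF value in 30 of the 57 and the lowest in 21 of the 36. With only the mice of lane 7 the count was 106, and with only those of lane 8 it was 0 in edgeR, although 521 genes had an unadjusted p below 0.05 there. With all 32 mice, it was 3. The library that this adds, KO HF fasted replicate 4, held heart markers at 35135 CPM, while none of the other 31 exceeded 390.8 CPM.

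**Figure D1:**
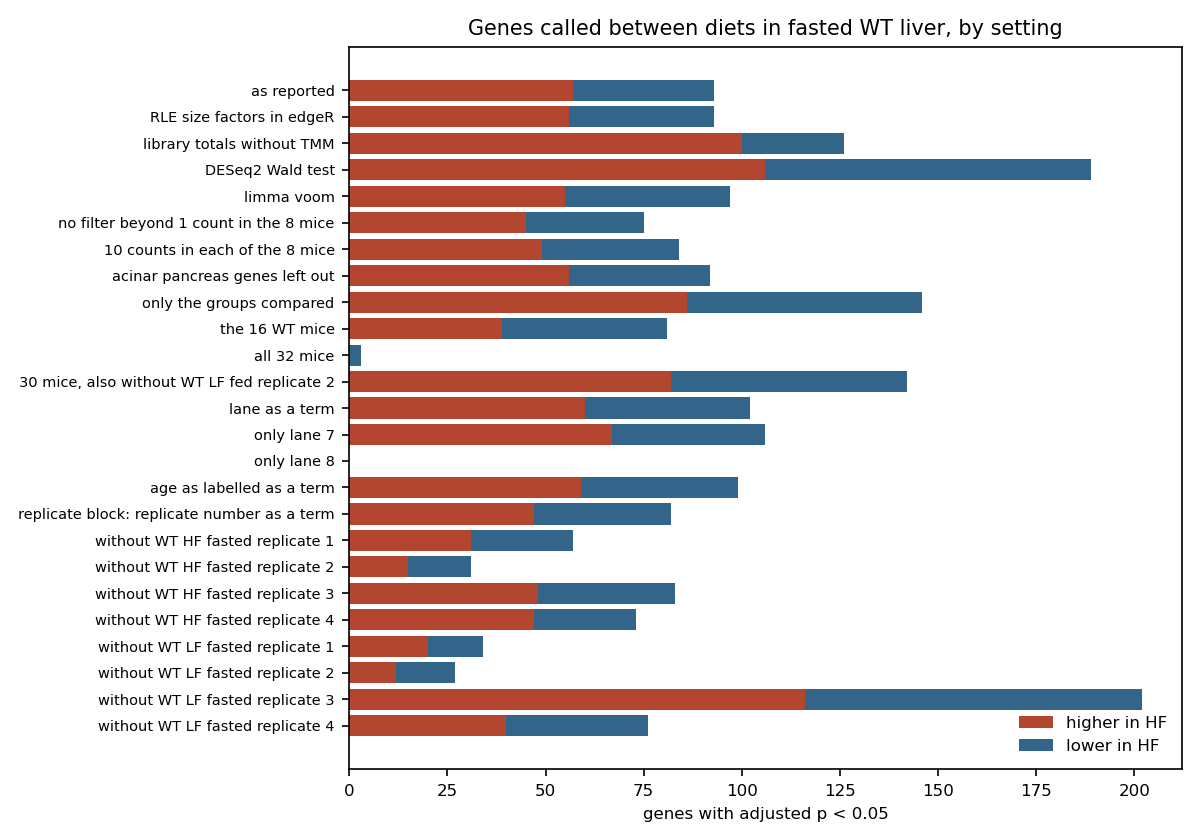
Number of genes with an adjusted p below 0.05 between HF and LF fasted WT livers (x axis) under each setting (y axis), stacked by direction; the top bar is the count as reported. The bar is absent for lane 8 alone, stops at 3 for all 32 mice and is longest, at 202, without LF replicate 3.

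Of 34 genes of the urea cycle and amino acid breakdown, all of them tested, 8 fell on HF (Cps1, Asl, Arg1, Sdsl, Got1, Gpt2, Aass and Cth) and 0 rose. Over all genes tested, 0.364% were called lower and 0.576% higher. The median difference of the list was -0.47 on the log2 scale, against -0.01 for all genes tested. At an unadjusted p below 0.05, 18 members were lower and 1 was higher, where 5.45% and 6.23% of all genes tested were. The higher one was Otc, the ornithine transcarbamylase of the urea cycle (log2 difference 0.53 ± 0.19 SE, adjusted p = 0.225). Within lanes the median of the list was -0.55 in lane 7 and -0.45 in lane 8. The number of members called ranged from 3 without LF replicate 1 to 10 without LF replicate 3, and it was 4 without LF replicate 2, 5 without HF replicate 2 and 0 in lane 8 alone or with all 32 mice.

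Cps1, Arg1 and Asl belong to the urea cycle. Cps1, which makes carbamoyl phosphate from ammonia in mitochondria, was at 5240.3, 4115, 1589 and 2872 CPM in LF replicates 1 to 4 and at 1414, 1519, 1278 and 986 CPM in HF replicates 1 to 4. LF replicate 3 lay just above the HF mice and the other 3 LF mice were well above them. The log2 difference was -1.41 ± 0.33 (SE; adjusted p = 0.0285), and the call was lost without HF replicate 1, 2, 3 or 4 or LF replicate 1 or 2 (adjusted p up to 0.184). Arg1, the arginase that releases urea, was at 4438, 3169.8, 1750.1 and 2619 CPM on LF and 1386, 1267, 1113 and 807 CPM on HF, again with every HF mouse below every LF mouse, a 2.62-fold lower level on HF (adjusted p = 0.000734). For Asl, which cleaves argininosuccinate, the groups overlapped, since LF replicate 3 at 214 CPM lay just below HF replicate 1 at 216 CPM. The log2 difference was -1.49 ± 0.301 (adjusted p = 0.00882, up to 0.0705 and lost without LF replicate 1 or 2).

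Other enzymes of the list move or remove amino groups. Got1, the cytosolic aspartate aminotransferase, showed the largest fold among the 8 genes, with 1322, 944, 188 and 575 CPM on LF and 201, 149, 199 and 131 CPM on HF. LF replicate 3 fell inside the HF range and LF replicate 1 stood highest. The difference was -2.15 ± 0.43 on the log2 scale (adjusted p = 0.0105), lost without HF replicate 2 or LF replicate 1 or 2 (adjusted p up to 0.0726). Gpt2, the mitochondrial alanine aminotransferase, was at 883, 702, 385 and 646 CPM on LF against 285, 289, 333 and 321 CPM on HF, without overlap (log2 difference -1.09 ± 0.22, adjusted p = 0.00619, and 0.0646 without LF replicate 1). Aass, which opens lysine breakdown, was 2.79-fold lower on HF (adjusted p = 0.00282), and Sdsl, a serine dehydratase-like enzyme, 3.59-fold lower (adjusted p = 0.00221). In all 8 of these genes LF replicate 3 was the lowest LF mouse. Tdo2, the tryptophan dioxygenase, did not pass the test (log2 difference -0.76 ± 0.22, adjusted p = 0.0909), although its values did not overlap.

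The promoter of Got1 is shown because it holds letters that match the element known to bind C/EBP with ATF4, the factor of the amino acid response. The 300 bases run from 250 before to 50 after the RefSeq start site (chr19:43524556-43524855, minus strand, GRCm38.p6), and capitals mark the match to TGATGNAA on either strand, where N is any base.
Got1: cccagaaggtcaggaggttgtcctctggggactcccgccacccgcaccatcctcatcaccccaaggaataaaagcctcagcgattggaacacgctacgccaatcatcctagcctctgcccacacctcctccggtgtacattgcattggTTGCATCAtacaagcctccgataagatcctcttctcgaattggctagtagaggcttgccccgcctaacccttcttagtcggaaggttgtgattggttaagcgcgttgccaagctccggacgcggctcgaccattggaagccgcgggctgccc
Such a match was found in 4.51% of the 27025 genes with a promoter in the table, in 2.67% of the tested genes and in 1 of the 26 genes lower on HF that have one (3.85%), against 2 of 44 higher on HF (4.55%), and it is a description of the letters only. The list of ATF4 targets itself showed no call among 12 tested members, with a median of -0.04. Atf5, a member of that list, had a log2 difference of -0.93 ± 0.25 (adjusted p = 0.0627) without overlap.

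Mat1a gave the smallest p of all genes. It encodes the liver enzyme that turns methionine into S-adenosylmethionine, the methyl donor of the cell, and lies at chr14:41105035-41124412 (GRCm38, plus strand). It was at 20435, 18618, 10269 and 13005 CPM on LF and at 6010.0, 3331, 6465 and 4753 CPM on HF. Every HF mouse lay below every LF mouse, and LF replicates 3 and 4, both of lane 8, were the lower ones on LF. The log2 difference was -1.600 ± 0.21 (adjusted p = 5.74e-05), a 3.03-fold lower level on HF. Downstream of it, Cth, which makes cysteine from cystathionine, was at 1659.6, 722, 477 and 1172 CPM on LF and 406, 451, 400.2 and 291 CPM on HF without overlap (adjusted p = 0.0332). This call was lost on leaving out any mouse except LF replicate 3 (adjusted p up to 0.217). Gnmt and Bhmt, which use up S-adenosylmethionine and remake methionine, did not pass the test, with log2 differences of -0.66 ± 0.26 and -0.95 ± 0.44. Gamt, the methyltransferase that completes creatine, went the other way, at 34.9, 51.8, 54.4 and 94.8 CPM on LF and 154, 213, 135 and 138 CPM on HF (log2 difference 1.43 ± 0.26, adjusted p = 0.00474).

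**Figure D2:**
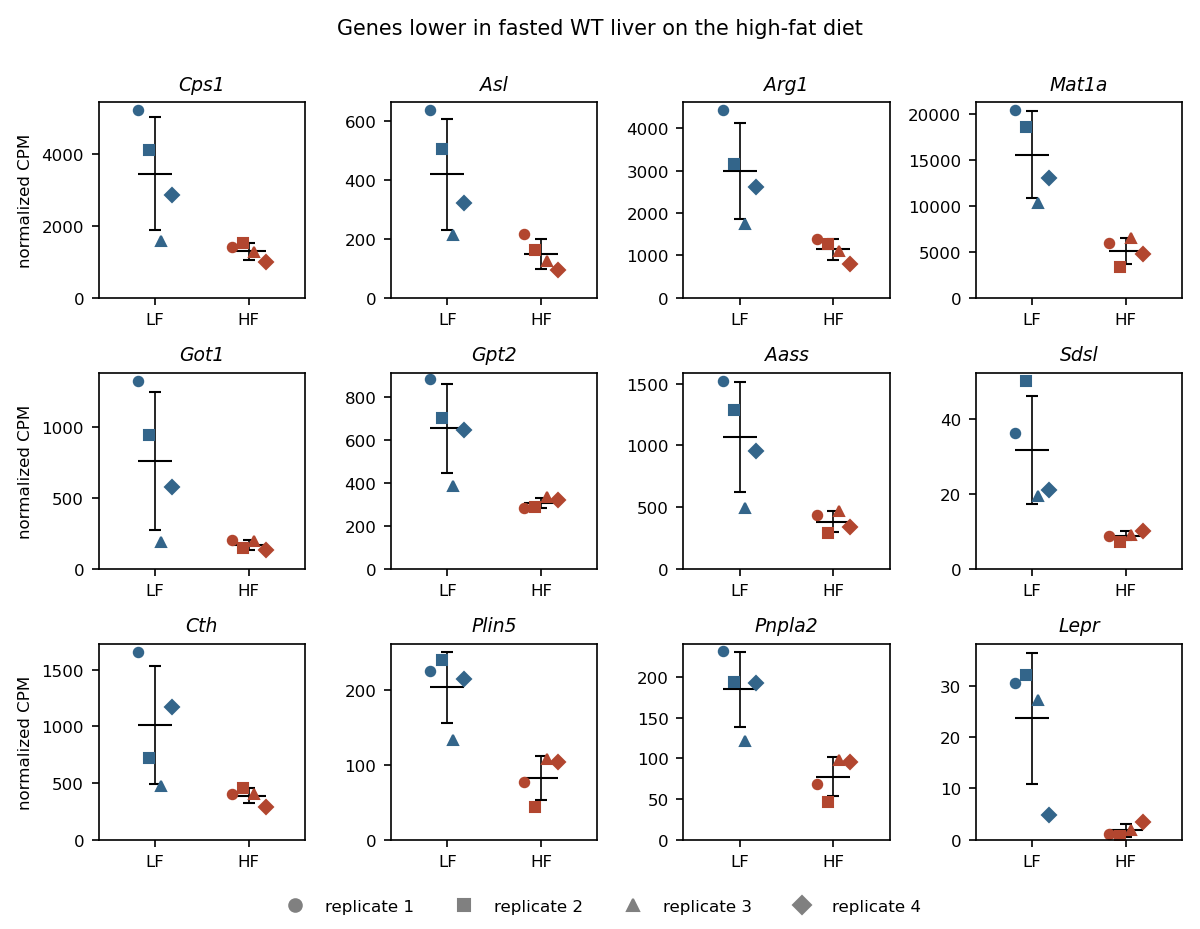
Normalized CPM (y axis, from 0) of 12 genes lower on HF in each LF and HF fasted WT mouse; marker shapes are replicates 1 to 4, and the bar and whiskers are the mean ± SD of 4 mice. LF replicate 3 (triangle) is the lowest LF mouse for Cps1, Arg1, Got1 and the other amino acid genes, and LF replicate 4 (diamond) for Lepr, at 4.78 CPM.

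Of 23 genes of triglyceride synthesis and lipid droplets tested, 2 fell on HF and 1 rose, where 0.364% and 0.576% of all genes tested did. Plin5, a droplet coat protein that ties droplets to mitochondria, was at 226, 240.3, 134 and 215 CPM on LF and 76.8, 43.4, 107 and 104 CPM on HF, without overlap and lowest in HF replicate 2 (log2 difference -1.296 ± 0.25, adjusted p = 0.00582). Pnpla2, the triglyceride lipase ATGL, was at 232, 194, 121 and 193 CPM on LF and 69, 46.8, 98.6 and 95.9 CPM on HF, 2.39-fold lower (adjusted p = 0.00963, and up to 0.0646 without HF replicate 2 or LF replicate 1). Fitm1, which helps to package fat into droplets, was higher on HF, at 46.7, 43.4, 48.8 and 67.3 CPM against 13.7, 14.5, 9.93 and 31.2 CPM (adjusted p = 0.0303). This call was lost without LF replicate 1, 2 or 3 and without any HF mouse (adjusted p up to 0.159). Cidec, a protein that enlarges droplets, had a log2 difference of -2.26 ± 0.89 and did not pass (adjusted p = 0.305), although its values, 117, 162, 43.2 and 50.8 CPM on LF and 18.5, 1.13, 26.7 and 30.5 CPM on HF, did not overlap. The related Cidea was not tested, with counts of 5, 0, 23 and 8 on HF and 0, 0, 1 and 0 on LF.

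Lepr, the leptin receptor, showed the largest fold of the genes lower on HF. It was at 30.4, 32.1, 27.2 and 4.78 CPM on LF and 1.1, 0.755, 1.86 and 3.48 CPM on HF, with 3 LF mice far above and LF replicate 4 only just above the HF mice. The HF mice held 4, 2, 8 and 9 counts, so the log2 difference of -3.697 ± 0.54 (adjusted p = 0.000234) rests on low counts in that group. The gene lies at chr4:101717404-101815352, plus strand. St3gal5, which makes the ganglioside GM3, was at 1679, 1012, 522 and 907 CPM on LF and 188, 183, 327 and 307 CPM on HF (4.1-fold lower, adjusted p = 0.00119). The other genes with the smallest p in this direction were Epb41, a membrane skeleton protein, at -0.85 ± 0.16, Atg16l2, a relative of an autophagy protein, at -1.79 ± 0.34, and the adhesion receptor Adgrf5 at -0.87 ± 0.17 on the log2 scale (adjusted p = 0.00282, 0.0054 and 0.00619). None of the 3 overlapped between the diets.

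Of the genes of glucose output that low insulin switches on, 0 of 15 in the list of gluconeogenesis and insulin-FoxO targets were called (6 lower at an unadjusted p below 0.05; median -0.42). Igfbp1, an insulin-repressed binding protein of IGF, chosen here after its values were seen, was at 1058, 1354, 288 and 240.0 CPM on LF and 89.8, 38.1, 149.8 and 160.0 CPM on HF. Its log2 difference of -2.75 ± 0.698 had an adjusted p of 0.06 and was -4.33 in lane 7 and -0.76 in lane 8 on the log2(CPM + 1) scale. Pck1, which commits carbon to glucose, had a difference of -1.03 ± 0.45 (adjusted p = 0.357), and G6pc, which releases glucose, -0.72 ± 0.38 (adjusted p = 0.492). Cdkn1a, a cell cycle inhibitor that rises in fasted liver, was at 133, 138, 60.9 and 52.3 CPM on LF and 19.9, 7.55, 21.4 and 22.4 CPM on HF without overlap and did not pass (adjusted p = 0.0603). Of the metallothionein and zinc transport list 0 of 6 were called, Mt1 having a difference of -2.13 ± 0.73 (adjusted p = 0.209).

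In the lists of fatty acid oxidation no gene was called. This holds for 23 genes of mitochondrial beta-oxidation and the carnitine shuttle (median -0.14, with 1 higher and 3 lower at an unadjusted p below 0.05). It holds for 17 of peroxisomal beta-oxidation (median -0.18, 1 and 1) and 6 of ketone body synthesis (median -0.17, 1 and 1). It also holds for 8 acyl-CoA thioesterases (median -0.36, 1 and 1) and the 9 members of the Cyp4a omega-hydroxylase list (median -0.90, 1 and 1). That list includes Cyp4f14, Cyp4f15 and Aldh3a2 beside the Cyp4a genes. The acyl-CoA dehydrogenases, which take the first step of beta-oxidation by chain length, differed by -0.09 ± 0.26 for Acads, -0.18 ± 0.21 for Acadm, -0.17 ± 0.16 for Acadl and -0.34 ± 0.16 for Acadvl on the log2 scale. Among these 4, the values of Acadvl alone did not overlap, with HF below LF (adjusted p = 0.389). Cpt1a, the gate of the mitochondria for long-chain acyl groups, differed by -0.398 ± 0.22. Cyp4a14, an omega-hydroxylase under PPARα, was at 20725, 21544, 21028 and 14922 CPM on LF and 5077, 1419.5, 11770.0 and 8452 CPM on HF. The groups did not overlap and HF replicate 2 was lowest, and the difference of -1.55 ± 0.91 did not pass (adjusted p = 0.563). Reads of Cyp4a and Acot genes can be shared with near-identical neighbours, so values of single members are uncertain. Acot2, a mitochondrial thioesterase, differed by -1.02 ± 0.73, Ppara itself by 0.34 ± 0.26, and Pdk4, which shuts pyruvate out of the mitochondria, by -0.42 ± 0.69. The hormone Fgf21 ranged from 3.78 to 83.3 CPM on HF and from 9.28 to 42.6 CPM on LF (log2 difference 0.27 ± 0.83, adjusted p = 0.951), and this difference changed sign under several alternatives. Fatty acid uptake and activation had 0 of 13 calls, with the fatty acid translocase Cd36 at 1.21 ± 0.47 (adjusted p = 0.299) and the binding protein Fabp1 at 0.73 ± 0.34 (adjusted p = 0.395). Outside these lists, and named after their values were seen, 2 genes were called higher on HF without overlap. They were the acyl-CoA synthetase Acsm5 (0.86 ± 0.21, adjusted p = 0.0285) and the CoA hydrolase Nudt7 (1.53 ± 0.31, adjusted p = 0.00806). The call of Acsm5 was lost without HF replicate 1 or 2 or LF replicate 1, 2 or 4 (up to 0.14). That of Nudt7 was lost without LF replicate 2 (0.0547).

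**Figure D3:**
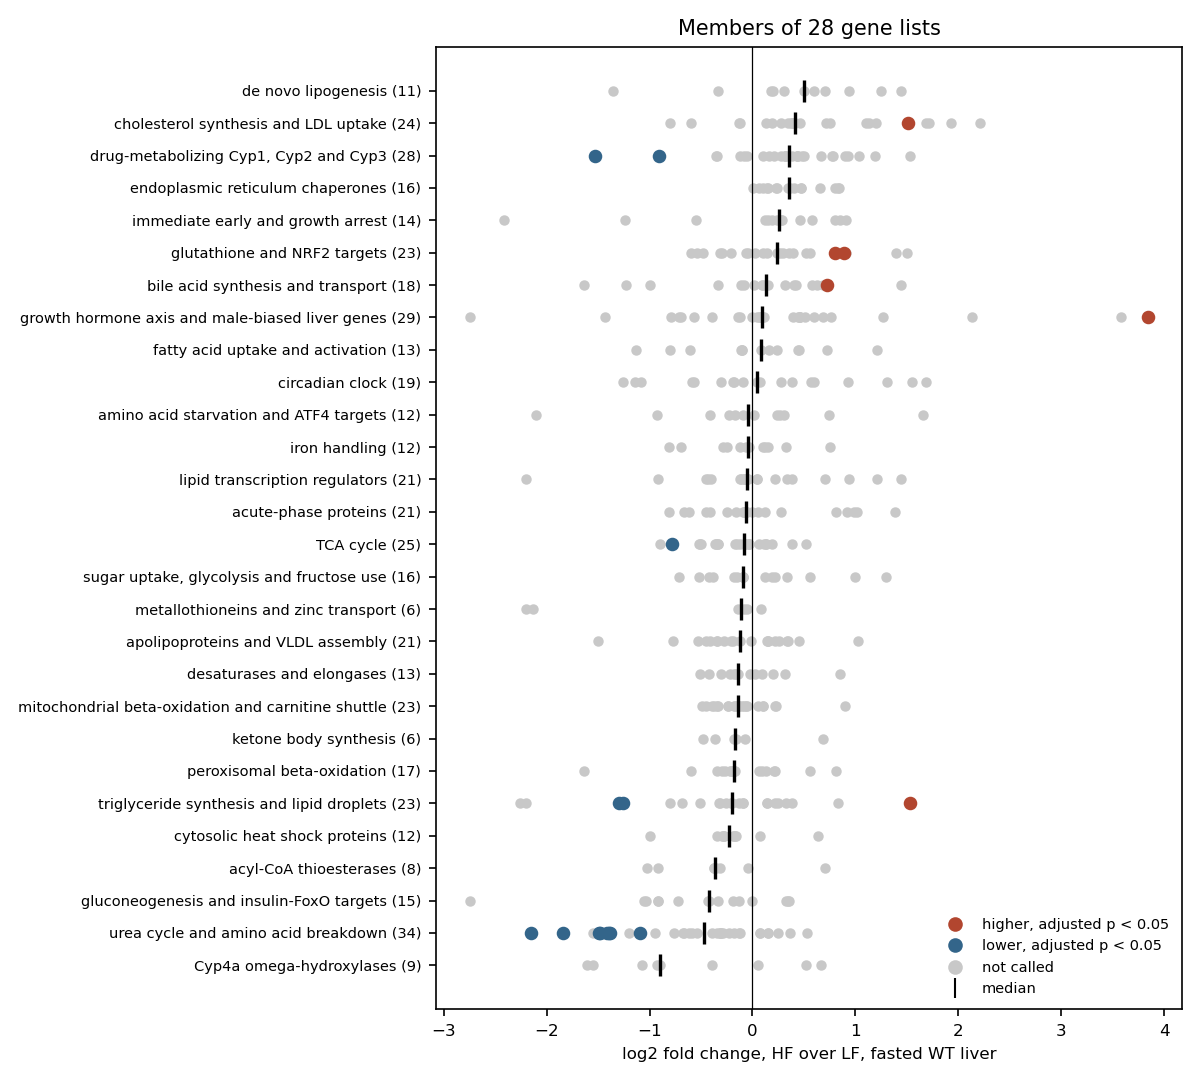
Log2 fold change, HF over LF, of every tested member (points) of 28 gene lists (y axis, with the number tested), ordered by the list median (black tick). The 8 called genes of amino acid breakdown lie left of 0, while the single call of the cholesterol list, Stard4, lies at 1.51.

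Of 24 genes of cholesterol synthesis and LDL uptake tested, 1 rose (Stard4), 0 fell and 20 had a positive difference, with a median of 0.41 against -0.01 for all genes tested. Over all 9893 genes, 0.576% rose, 0.364% fell and 4874 had a positive difference. The lanes differed: the median was 0.91 in lane 7 and 0.01 in lane 8, and it was 0.195 without HF replicate 2. Stard4, a carrier of cholesterol between membranes, was at 21.5, 18.5, 15.1 and 23.4 CPM on LF and 47.8, 105, 41.2 and 33.2 CPM on HF. HF replicate 2 was the highest and the other 3 HF mice were still above every LF mouse (log2 difference 1.51 ± 0.26, adjusted p = 0.00199), and leaving out HF replicate 2 kept the call. Hmgcs1, an early enzyme of the mevalonate route, was at 302, 514, 236 and 284 CPM on HF and 114, 102, 234 and 172 CPM on LF, without overlap, and did not pass (1.099 ± 0.39, adjusted p = 0.223). Insig2, which holds SREBP in the endoplasmic reticulum, had a difference of -0.805 ± 0.25 (adjusted p = 0.132), and Srebf1, the factor of lipogenesis, 0.94 ± 0.42 (adjusted p = 0.373). De novo lipogenesis had 0 of 11 calls (3 higher and 1 lower at an unadjusted p below 0.05; median 0.50). Its member Mlxipl, the sugar-sensing factor ChREBP, differed by 0.700 ± 0.23 without overlap (adjusted p = 0.146), and the desaturase Scd1 by -0.16 ± 0.64.

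Mmab, a cobalamin adenosyltransferase, was at 4.46, 2.81, 6.05 and 3.77 CPM on LF and 8.56, 21.9, 10.9 and 11.2 CPM on HF, without overlap (1.61 ± 0.33, adjusted p = 0.00707). The call was lost without HF replicate 2 or LF replicate 2 (adjusted p up to 0.0703). It was named after its values were seen, because it lies head to head with Mvk, the mevalonate kinase of cholesterol synthesis, and the 300-base windows around both start sites share 259 bases. Mvk was at 3.71, 1.21, 8.64 and 1.01 CPM on LF and 6.08, 12.8, 6.51 and 6.57 CPM on HF (1.196 ± 0.47, adjusted p = 0.293), both genes being highest in HF replicate 2. Their shared promoter is shown from the side of Mmab (chr5:114443978-114444277, minus strand, GRCm38.p6), with capitals for each CCAAT box on either strand, the letters to which NF-Y, a partner of SREBP, binds.
Mmab: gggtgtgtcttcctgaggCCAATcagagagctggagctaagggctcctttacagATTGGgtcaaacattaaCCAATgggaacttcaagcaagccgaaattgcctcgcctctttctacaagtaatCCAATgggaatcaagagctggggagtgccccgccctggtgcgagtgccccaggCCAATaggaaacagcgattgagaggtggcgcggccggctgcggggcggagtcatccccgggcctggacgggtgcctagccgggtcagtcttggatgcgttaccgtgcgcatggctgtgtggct
The window holds 5 such boxes. A CCAAT box was found in 17 of the 19 genes of the cholesterol list with a promoter in the table (89.5%), against 42.8% of the 7610 tested genes with one, 18 of 44 genes higher on HF (40.9%) and 14 of 26 lower on HF (53.8%). The stricter SREBP element (ATCAC and CCAC with 1 base between them) was found in 0 of the 19, and in 0.27% of all promoters.

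Akr1c6, a hydroxysteroid dehydrogenase, was at 278, 218, 320.0 and 415 CPM on LF and 1001, 1115, 706 and 828 CPM on HF, 2.96-fold higher without overlap (adjusted p = 0.000502). Aox3, an aldehyde oxidase, was 3.62-fold higher (adjusted p = 0.0054), Akr1c20, an aldo-keto reductase, 2.43-fold (adjusted p = 0.00619, up to 0.0551 without LF replicate 1 or 2), and the carboxylesterase Ces1g 3.02-fold (adjusted p = 0.00619). The log2 difference of Ces1g was 1.596 with all 8 mice and 2.21 without LF replicate 4. Hsd3b5, a steroid dehydrogenase of male liver, was at 6.31, 8.44, 7.34 and 9.3 CPM on LF and 59.6, 193, 117 and 88.1 CPM on HF. The HF mice were all far above the LF mice and differed among themselves, with HF replicate 2 highest (log2 difference 3.84 ± 0.81, adjusted p = 0.0191, up to 0.093 and lost without HF replicate 2 or LF replicate 1, 2 or 4). It was the single call among 29 genes of the growth hormone axis and male-biased expression (median 0.09), where 0.94% of all genes tested were called. Akr1c, Ces1 and Hsd3b genes have close relatives nearby, and reads shared between them could not be traced. Car3, a carbonic anhydrase of liver, muscle and fat, was at 45.7, 28.5, 269.9 and 379.8 CPM on LF and 1894, 2332, 708 and 1224 CPM on HF, without overlap (8.48-fold higher, adjusted p = 0.0215, up to 0.093 and lost without HF replicate 1 or 2 or LF replicate 1 or 2). Its log2 difference was 3.08 with all 8 mice, ran from 2.73 to 3.75 on leaving out a mouse (3.75 without LF replicate 4), and was 5.82 in lane 7 and 1.54 in lane 8. The adipose list, of which Car3 is a member, summed to 807 to 2387 CPM on HF and 58.3 to 479 CPM on LF, and Car3 was the 1 member called of 5 tested. Car3 itself gave 6859, 6177, 3046 and 3167 of the 6978, 6322, 3470 and 3373 counts of the sum on HF. On LF it gave 123, 71, 625 and 1511 of 234, 145, 727 and 1904 counts. The sum on HF therefore mostly repeats Car3 and is no separate measure of adipose RNA. Of the other 8 members, Lep was at 0 counts in all 8 mice, and Retn in all but LF replicate 4. Adipoq had 0, 0, 20 and 1 counts on HF and 0, 0, 0 and 7 on LF, and Plin1 0, 0, 7 and 1 on HF and 0, 0, 0 and 5 on LF. Cfd had 13, 31, 54 and 71 counts on HF and 3, 0, 0 and 51 on LF. Fabp4, Lipe and Adrb3 were detected in every mouse, Fabp4 with 65 to 264 counts on HF and 55 to 252 on LF. Their part in the difference of Car3 was not tested.

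The list of drug-metabolizing Cyp1, Cyp2 and Cyp3 genes also holds their reductase Por and the regulators Nr1i2 and Nr1i3. Of its 28 members tested, 2 fell and 0 rose, while 21 had a positive difference (median 0.35). Over all genes tested, 0.364% fell and 0.576% rose. Por, the reductase that feeds electrons to all microsomal P450s, was at 419, 406, 167 and 285 CPM on LF and 146, 59.3, 110.5 and 125 CPM on HF, without overlap (2.89-fold lower, adjusted p = 0.00619). Cyp3a13 was at 321, 425, 369 and 289 CPM on LF and 210.2, 164, 176 and 195 CPM on HF (-0.91 ± 0.18, adjusted p = 0.00619, and 0.0516 without LF replicate 2). Cyp2b9 was not tested, with 41, 3, 0 and 11 counts on HF and 0 counts in each LF mouse.

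Of 23 genes of glutathione metabolism and NRF2 targets, 2 rose and 0 fell (median 0.24), where 0.576% and 0.364% of all genes tested did. Gclc, the catalytic subunit of the first step of glutathione synthesis, was at 151, 159, 298 and 263 CPM on LF and 398, 407, 320.0 and 489 CPM on HF, without overlap (0.89 ± 0.21, adjusted p = 0.0275), and Gstt1, a glutathione transferase, differed by 0.801 ± 0.19 (adjusted p = 0.0232). Both calls were lost without HF replicate 1 or 2 and without LF replicate 1 or 2, and that of Gclc also without HF replicate 4 (adjusted p up to 0.187 and 0.133). In bile acid synthesis and transport 1 of 18 rose, the bile salt export pump Abcb11, at 177, 178, 256 and 178 CPM on LF and 319, 345, 307 and 329 CPM on HF (adjusted p = 0.0342). This call was lost without any HF mouse and without LF replicate 1, 2 or 4 (adjusted p up to 0.178). Cyp7a1, the rate-limiting enzyme of bile acid synthesis, differed by -1.23 ± 0.56 and Cyp8b1, which sets the share of cholic acid, by -0.997 ± 0.35, neither passing the test (adjusted p = 0.381 and 0.209). Keg1, a glycine acyltransferase-like gene, was 3.13-fold higher (adjusted p = 0.00582). Acat3, a thiolase-like gene overlapping Tcp1, was 2.02-fold higher (adjusted p = 0.00199). The remaining genes with the smallest p in this direction were 9030619P08Rik, 1810058I24Rik and Klhdc7a, at 2.26 ± 0.37, 1.06 ± 0.21 and 2.21 ± 0.44 on the log2 scale, none overlapping between the diets.

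**Figure D4:**
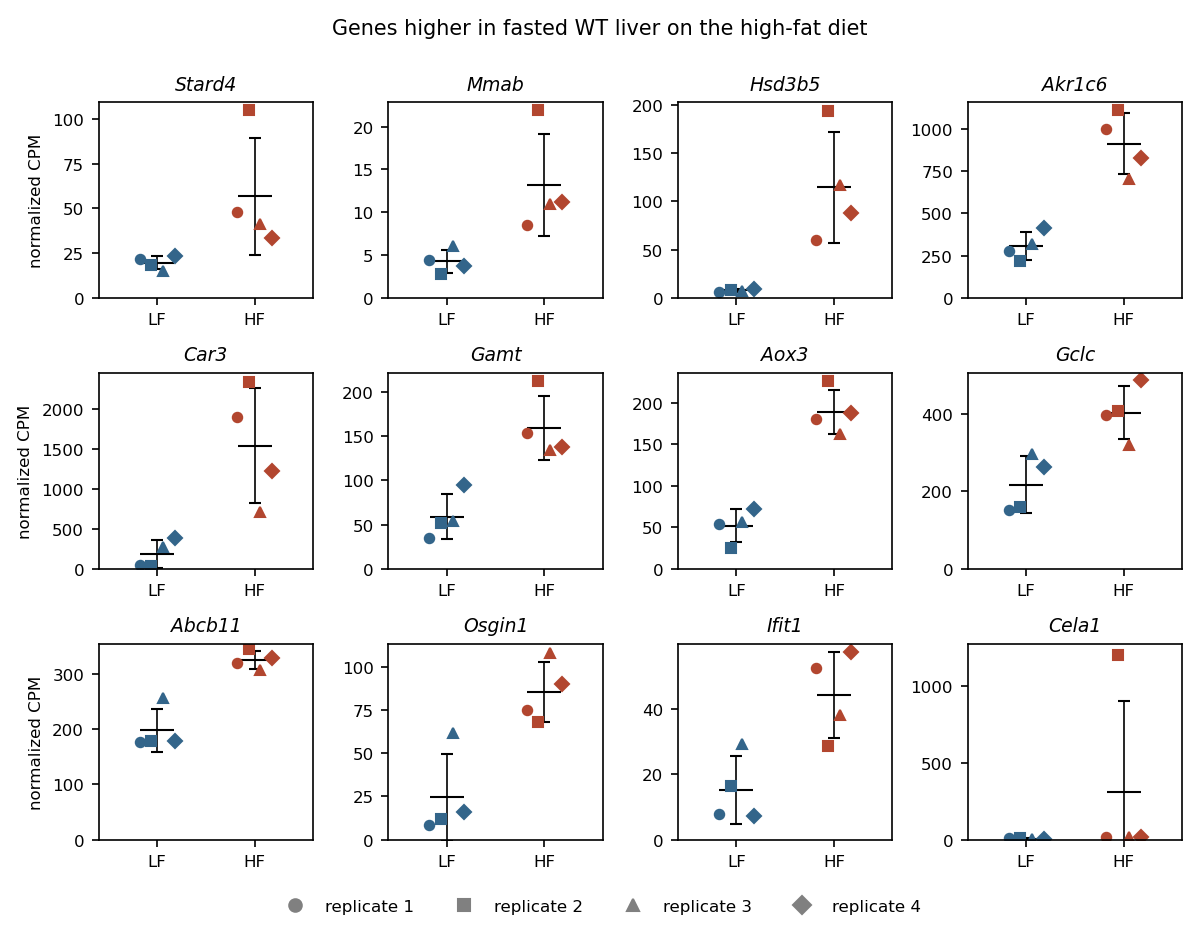
Normalized CPM (y axis, from 0) of 12 genes higher on HF in each LF and HF fasted WT mouse, drawn as in the plot of genes lower on HF. HF replicate 2 (square) is highest for Stard4, Mmab, Hsd3b5 and Car3 and stands alone for Cela1, at 1199 CPM.

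Ifit1, Ifitm3 and AW112010, known as interferon-induced, were higher on HF. Ifit1 and Ifitm3 were named after their values were seen. No list of interferon-induced genes was examined, so these genes do not show how such genes behaved as a set. Ifit1, a sensor of foreign RNA, was at 7.8, 16.5, 29.4 and 7.29 CPM on LF and 52.5, 28.7, 38.1 and 57.2 CPM on HF, the groups overlapping through LF replicate 3 and HF replicate 2 (1.57 ± 0.395, adjusted p = 0.0442). Ifitm3, a membrane protein that blocks virus entry, was at 286, 277, 386 and 307 CPM on LF and 563, 491, 422 and 523 CPM on HF, without overlap (0.67 ± 0.17, adjusted p = 0.0332). The call of Ifit1 was lost on leaving out any mouse except LF replicate 3 (adjusted p up to 0.216), and that of Ifitm3 on leaving out any except HF or LF replicate 3 (up to 0.161). AW112010, an interferon-induced transcript of immune cells, was at 30.4, 24.9, 62.6 and 44.2 CPM on LF and 92, 86.1, 64.6 and 139.5 CPM on HF (1.23 ± 0.22, adjusted p = 0.00221). Both promoters below are shown because each holds 2 matches to the interferon-stimulated element, a pair of GAAA blocks with 2 bases between them, marked by capitals on either strand (GRCm38.p6, Ifit1 at chr19:34640639-34640938, plus strand, and Ifitm3 at chr7:141010695-141010994, minus strand).
Ifit1: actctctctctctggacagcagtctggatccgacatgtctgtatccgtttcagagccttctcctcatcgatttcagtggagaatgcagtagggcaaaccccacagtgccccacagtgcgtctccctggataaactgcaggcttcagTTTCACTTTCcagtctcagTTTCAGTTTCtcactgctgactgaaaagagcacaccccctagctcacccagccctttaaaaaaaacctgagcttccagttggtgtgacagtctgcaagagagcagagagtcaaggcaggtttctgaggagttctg
Ifitm3: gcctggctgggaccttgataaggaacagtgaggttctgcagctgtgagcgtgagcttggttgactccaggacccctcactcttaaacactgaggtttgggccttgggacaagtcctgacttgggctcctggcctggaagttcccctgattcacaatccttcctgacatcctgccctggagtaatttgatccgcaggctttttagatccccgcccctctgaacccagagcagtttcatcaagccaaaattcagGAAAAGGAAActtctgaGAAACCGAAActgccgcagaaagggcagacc
The element was found in 3 of 44 genes higher on HF with a promoter in the table (6.82%), in 3 of 26 lower on HF (11.5%) and in 3.69% of tested genes. Beside these values, the liver macrophage markers summed to 448 to 959 CPM on HF and 371 to 658 CPM on LF, 0 of 11 tested members being called, and the markers of B, plasma and T cells to 113 to 392 CPM and 75.7 to 186 CPM, with 0 of 4 called. HF replicate 4 was highest in both lists. In it, H2-Aa, H2-Eb1, H2-Ab1 and Cd74 gave 430, 315, 200 and 59 of the 1014 counts of the second list. Each other member of that list had at most 5 counts there. Of the tested members, 10 of 11 and 4 of 4 had a positive difference, against 4874 of all 9893 genes tested. The part of these markers in the result was not tested.

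All 16 endoplasmic reticulum chaperones tested had a positive difference (median 0.35), but 0 were called and 4 had an unadjusted p below 0.05. Hspa5, the BiP chaperone, ranged from 1019 to 2248 CPM on HF and from 711 to 2326 CPM on LF (0.15 ± 0.32), and Calr, calreticulin, differed by 0.65 ± 0.19 (adjusted p = 0.0995). The list median was 0.20 in lane 7 and 0.59 in lane 8. No gene was called in the lists of sugar use (16 tested; 2 higher and 2 lower at an unadjusted p below 0.05), desaturases and elongases (13; 0 and 0), apolipoproteins (21; 0 and 4), acute-phase proteins (21; 3 and 2), cytosolic heat shock proteins (12; 0 and 0), the circadian clock (19; 5 and 2), immediate early genes (14; 0 and 2), iron handling (12; 0 and 0) and lipid transcription regulators (21; 3 and 2). Among their members, the lipid regulator Pparg differed by 1.21 ± 0.61 and the iron hormone Hamp by -0.81 ± 0.43 on the log2 scale (adjusted p = 0.45 and 0.48).

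Cela1, an elastase that the pancreas secretes, had the highest fold of all genes. It was at 13.5, 1199, 17.9 and 17.4 CPM on HF and 8.17, 10.4, 2.16 and 5.28 CPM on LF, so that HF replicate 2 lay far above the rest while the other HF mice were above the LF mice by a small margin. The adjusted p was 0.0273, and the log2 difference fell from 5.57 to 1.32 without HF replicate 2 (adjusted p = 0.562). The call was also lost without LF replicate 1, 2 or 4. Leaving all acinar pancreas genes out of library sizes and tests gave 92 calls in place of 93, each of them among the 93. Only 1 gene of that list, Cela1, was tested, and transcripts outside the list were kept. This setting therefore cannot show how far pancreas RNA bears on the other calls. Without HF replicate 2 as a whole, 31 of the 93 were still called. Markers of stellate cells and fibroblasts summed to 550.0 to 652 CPM on HF and 451 to 540.2 CPM on LF, and those of gallbladder and bile duct to 80.4 to 145 CPM and 56.8 to 68.7 CPM, with 0 of 10 and 0 of 3 tested members called. In both lists the sums of the diets did not overlap. Of the tested members, 10 of 10 and 2 of 3 had a positive difference, against 4874 of all 9893 genes tested. The part of these markers in the results above was not tested.

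The same diets were compared in fed WT mice and in fasted KO mice, which share no mouse with the fasted WT comparison. In fed WT liver 7 of the 9893 genes were called (0.0708%). Of the 93 genes, 57 had the same sign there (61.3%, against 54.2% of all genes tested), 14 also had an unadjusted p below 0.05 (7.27% of all genes tested, in either direction) and 1 was called, 9030619P08Rik. Of the 36 genes lower on HF in fasted mice, 11 had the same sign in fed mice, and of the 57 higher on HF, 46 had. In fasted KO liver, with 3 HF (replicate 4 left out) and 4 LF mice, 122 genes were called (1.23%). Of the 93 genes, 92 had the same sign there, against 63.0% of all genes tested, and 33 were called in the same direction, which is 35.5% of the 93 and 27.0% of the 122. Arg1 differed by -1.202, Mat1a by -1.35, Plin5 by -1.65, Stard4 by 1.98 and Hsd3b5 by 4.300 on the log2 scale in the KO mice (adjusted p = 0.00645, 0.0016, 0.0016, 0.000188 and 0.0148). The test of the difference between the genotypes called 0 genes in edgeR and 0 in DESeq2, with 340 genes (3.44%) at an unadjusted p below 0.05 in edgeR.

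The effect of the diet differed between fasted and fed WT mice for 18 genes (0.182%, with 7.44% at an unadjusted p below 0.05), 16 with a lower (more negative) and 2 with a higher log2 difference in fasted mice. Of the 18, 12 were among the 36 genes lower on HF in fasted liver, which are 0.364% of all genes tested. The change contains the fasted difference of the same mice, so genes called lower there are favoured here. The overlap is therefore no independent support. For Mat1a the log2 difference was -1.600 in fasted and 0.75 in fed mice, a change of -2.35 ± 0.295 (adjusted p = 1.84e-05). For Arg1 it was -1.39 and 0.21 (adjusted p of the change = 0.0182), for Plin5 -1.296 and 0.53 (0.0248) and for Epb41 -0.85 and 0.35 (0.00955). Glt1d1, a glycosyltransferase-like gene, had -0.95 in fasted and 1.196 in fed mice (0.00233), and Acnat2, which conjugates acyl-CoAs to amino acids in peroxisomes, -0.36 and 2.24 (0.0074). All 4 WT LF fed mice and 1 of the 4 WT HF fed mice were labelled lane 8, so lane and diet overlap among the fed mice, whereas the fasted groups were split evenly. The number called was 7 with lane as a term, 4 with the WT mice alone and 0 with the mice of lane 8 alone. Glt1d1 was called in fasted mice as well (adjusted p = 0.0354), and that call was lost on leaving out any mouse except LF replicate 3 (up to 0.299). Over the fits without a single fasted WT mouse the count ran from 4 (without LF replicate 1 or 2) to 36 (without LF replicate 3), with 7, 6 and 11 without HF replicates 1, 2 and 3.

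**Figure D5:**
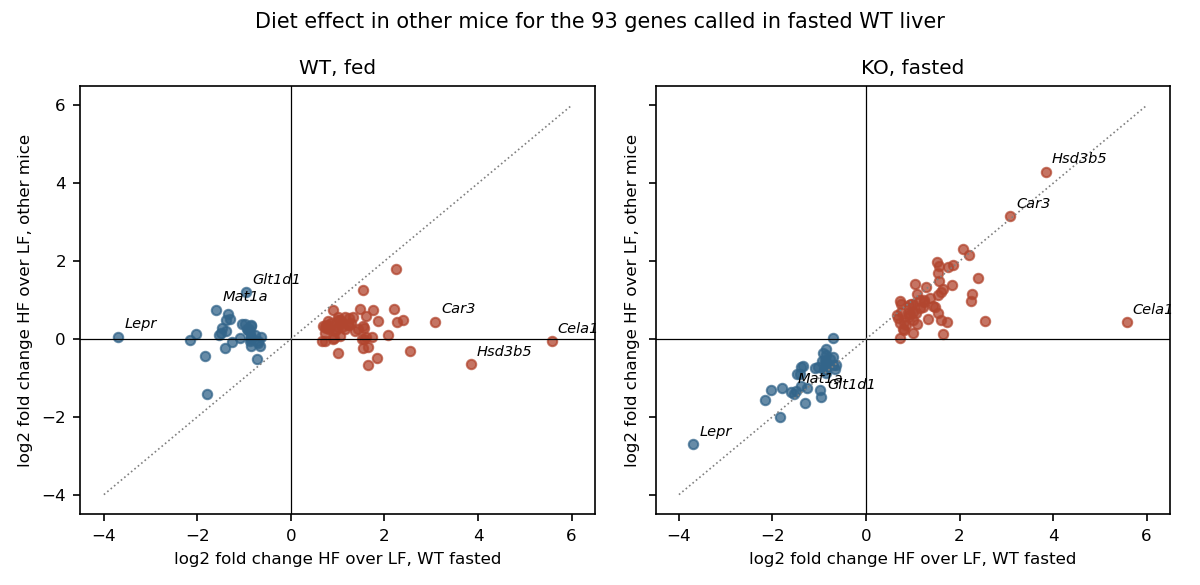
Log2 fold change, HF over LF, of the 93 genes called in fasted WT liver (x axis) against that in fed WT mice (left) and fasted KO mice (right) (y axis); blue genes were lower and red genes higher on HF, and the dotted line marks equal values. In fed mice 57 of the 93 keep their sign, and in fasted KO mice 92.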

How the data were processed

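Liver RNA was measured in 32 mice, of which 8 are compared here. Per the labels, the authors mapped 3′ reads with HISAT 0.1.5 to GRCm38, used SAMtools 1.2, and deposited counts per gene from HTSeq 0.6.1p1 as whole numbers for 20076 genes; the strand setting is not given in the sources used here. Counts were fitted with edgeR 4.0.16 (R 4.3.3; TMM, robust quasi-likelihood) as 8 group means over 31 mice, leaving out KO HF fasted replicate 4, which is in neither group. Genes were kept by filterByExpr on the 8 mice, and p-values were adjusted over all 9893. CPM are TMM-scaled; permutation tests used log2(CPM + 1). SE is the log2 difference divided by the square root of F. The fit was tested on simulated data.

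Same-numbered mice of the groups showed correlations of residuals between -0.10 and 0.04, so numbers were not treated as pairs. Nothing in the labels shows how mice were housed or handled apart, so a shared cage or handling could not be taken into account. The p-values set each difference against a spread between mice that was estimated over all 31 mice in the fit. Members, gene lists and tests were chosen with earlier results of these data known. Named genes are, per direction, the 12 with the smallest p among called genes of at least 5 CPM without overlap, called and abundant list members, up to 4 genes per difference between conditions, and a list of genes of fat and glucose metabolism; others are marked in the text, and a few genes of the rule are not reported here. Promoters come from RefSeq (GRCm38.p6). Alternatives were RLE, no scaling factor, DESeq2 1.42.0, limma 3.58.1 voom, other filters, mice and terms, and each mouse left out.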

Additional observations from a re-analysis of the deposited data

Results flagged for a closer look

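Single mice stood apart in some of the named genes. Of 170 groups of 4 values examined by Dixon's test, 17 had a highest or lowest mouse set apart from the others. For independent groups of normal values, chance gives about 1 in 20. The groups here reuse the same 8 mice and hold untransformed CPM, so the count cannot be compared with that rate. In HF replicate 2, Acadm was at 392.6 CPM (others at least 616), Acot2 at 13.6 CPM (at least 39.8), Cdkn1a at 7.55 CPM (at least 19.9) and Mvk at 12.8 CPM (at most 6.57), and acinar pancreas markers summed to 23947 CPM (at most 22.9). In HF replicate 4, skeletal muscle markers summed to 384.6 CPM (at most 2.76 in the other HF mice), liver macrophage markers to 959 CPM (at most 533) and markers of B, plasma and T cells to 392 CPM (at most 146). In HF replicate 3, adrenal cortex markers summed to 39.5 CPM (at most 4.97) and sinusoidal endothelium markers to 418 CPM (at least 461). On LF, replicate 1 was high for Atg16l2 at 71.7 CPM (others at most 37.8) and low for Fgf21 at 9.28 CPM (at least 38.5). LF replicate 3 was high for 1810058I24Rik at 103 CPM (at most 65.9), for Abcb11 at 256 CPM (at most 178) and for B, plasma and T cell markers at 186 CPM (at most 90.4). In both mice set apart for the B, plasma and T cell list, most of its counts came from H2-Aa, H2-Eb1, H2-Ab1 and Cd74. LF replicate 4 was high for Ces1g at 86.7 CPM (at most 32.1) and low for Cyp4a14 at 14922 CPM (at least 20725). The cause of these gaps was not tested.

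The effect of the diet differed between fasted and fed WT mice, by the test of the difference itself, for 14 of the genes examined. On the log2 scale (fasted minus fed) the change was -2.35 for Mat1a, -3.75 for Lepr, -1.595 for Arg1, -2.16 for St3gal5, -1.202 for Epb41, -1.75 for Aass and -1.82 for Plin5. It was -1.14 for Cyp3a13, -1.37 for Glrx, -1.43 for Gfra1, -1.98 for Tedc2, -2.15 for Glt1d1, -1.403 for Tdo2 and -2.596 for Acnat2. Lane and diet overlap among the fed WT mice, since all 4 LF and 1 of the 4 HF mice were labelled lane 8.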

How the results depend on the processing

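The 93 genes called between the diets kept their sign under all 24 alternatives in which they could be fitted. Their number rose to 189 with DESeq2 (91 of the 93 among them; it gave no adjusted p for the other 2, Cela1 and Vps45), to 146 with only the 8 mice (74 of the 93) and to 142 without WT LF fed replicate 2 as well; it fell to 3 with all 32 mice and to 0 in lane 8 alone, and it ran from 27 to 202 over the fits without a mouse. The 18 differences between fasted and fed mice became 48 with DESeq2, 11 with voom, 4 with only the 16 WT mice, 0 with all 32 mice, 28 with 30 mice, 7 with lane as a term, 0 in lane 8 alone, and 4 to 36 without a mouse, and without TMM 12 of 18 in place of 16 of 18 were lower; lane 7 alone holds no WT LF fed mouse and gave no value. The difference between genotypes stayed at 0 under every alternative run; it has no value with the WT mice alone. With the replicate number as a block, which does not pair these mice, 82 genes were called between the diets, 81 of them among the 93, 9 between fasted and fed, and 0 between genotypes. Signs turned only for genes that were not called. Acads turned to 0.011 without TMM and 0.11 in lane 8, and ran from -0.21 to 0.10 without a mouse (positive without HF replicate 1). Fgf21 turned to -0.25 with voom, -0.045 with lane as a term and -1.61 in lane 7, and ran from -0.43 to 0.64 (negative without HF replicate 3 or LF replicate 1, at -0.042). Hspa5 was at -0.105 in lane 7 and ran from -0.086 to 0.42 (negative without HF or LF replicate 3). Scd1 turned to 0.69 in lane 7 and 0.011 with the block, and ran from -0.39 to 0.086 (positive without HF or LF replicate 4). The cause of these changes was not tested. Among the values of single genes and of list counts, 2506 alternatives stayed as reported, 724 were weaker, 47 stronger and 15 reversed in sign. For a single gene, staying meant the same side of the threshold. For a list count, it meant a number close to the reported one. A level of 3 counts corresponds to 0.699 to 1.28 CPM, and values near it rest on few reads.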
